A study of Mus musculus with 2 samples.

Results

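Interferon regulatory factors (IRFs) and genes that interferons induce were measured in P5424, a mouse T-cell line, on 2 one-colour Agilent arrays with 60-base probes. The set holds 46 genes of the 34844 gene names with a non-control probe on the array. Its members were chosen by symbol: 8 IRFs and 38 interferon-induced genes, found through the gene name that the scanner files give to each probe. Per the labels, both samples are P5424 cells with a knockout of Rag2 and P53 that received no treatment. RPMI1640 medium held 2-mercaptoethanol at 0.1 mM and fetal bovine serum at 10%, and 200 ng of total RNA was labelled with Cy3 for each array. The arrays form 1 group with 2 replicates, and no interferon-treated sample was part of the comparison. Every value is therefore the level in untreated cells, and each difference is replicate 2 minus replicate 1 of the same condition. Nothing in the labels tells whether separate cultures were used, and the spread between replicates may be technical only. P5424 is a single line.

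Interferons are secreted proteins that cells release when they sense viral or other foreign nucleic acid. Type I interferons signal through the Ifnar chains and interferon gamma through the Ifngr chains. Both receptors use JAK kinases, which activate STAT proteins. STAT proteins bind IRF9 to form a complex that recognises the interferon-stimulated response element (ISRE), while STAT pairs bind the gamma-activated site (GAS). IRF3 and IRF7 switch on the interferon genes themselves, and IRF1, IRF2, IRF4 and IRF8 regulate lymphoid and myeloid genes as well. Many cells keep a low tonic level of interferon-induced transcripts without added interferon.

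Of 55681 probes, 22923 (41.2%) were well above background on replicate 2 and 23649 (42.5%) on replicate 1. The 75th percentile of the non-control probes, to which all log2 values below are set, was a signal of 299 intensity units for replicate 2 and of 324 for replicate 1. The highest negative control spot reached 101 units on replicate 2 and 15.1 on replicate 1, so that Oas1a and Mx1 lay below that spot on replicate 2. So did 2571 of the 16060 detected gene names of the array. No spot was saturated. Rag2, a subunit of the recombinase of antigen receptor genes, gave 2086 units on replicate 2 and 2132 on replicate 1 with its brighter probe. Trp53, the gene of P53, gave 996 units on replicate 2 and 746 on replicate 1. Which stretch of either gene was removed is not given, and a probe beyond that stretch cannot test a deletion, so neither value bears on the genotype label. All 10 T-lineage markers were detected, among them Cd3e with 86949 units on replicate 2 and 111775 on replicate 1. Of the 5 B-cell markers, 3 were not well above background on either array, among them Pax5 and Ms4a1, while Cd79a was detected on both and Cd79b on replicate 2 alone. Of the myeloid markers, Lyz2 and Fcgr1 were not, whereas Csf1r, Cd14, Itgam and Elane were detected. Of the 7 genes listed as markers of plasmacytoid dendritic cells, which are strong producers of interferon, 6 were detected and Clec10a was not. Siglech and Tlr7 were each detected with 1 of 3 probes. Whether the listed genes mark such cells in this T-cell line was not tested. In RNA of a whole culture, fewer cells that express a gene and less RNA per cell cannot be told apart.

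A gene was called detected when at least 1 of its probes was well above background on both arrays. By this rule 35 of the 46 genes were detected (76.1%), beside 46.1% of all gene names and 51.6% of the 19796 names that carry a RefSeq symbol. The IRFs and the induced genes were detected at like shares, with 6 of 8 IRFs (75%) and 29 of 38 induced genes (76.3%). Another 3 genes, Irf5, Irf7 and Ifit3, were well above background on replicate 2 alone, as were 0.839% of the names with a RefSeq symbol. Ifitm1 was so on replicate 1 alone, as were 1.68% of those names. The remaining 7, Ifih1, Oas2, Oas3, Oasl2, Ifitm2, Samhd1 and Ifi44, were not well above background on either array. Each of these 11 genes has only an upper bound on at least 1 array. Where a signal is printed for an array on which a probe was not well above background, it is the scanner's reading and stands as a bound, with no direction read from it. The genes not detected on either array included 3 of the 6 members of the 2-5A synthetase family. They came from 5 of the 10 roles, and all 5 guanylate-binding and immunity-related GTPases were detected.

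**Figure D1:**
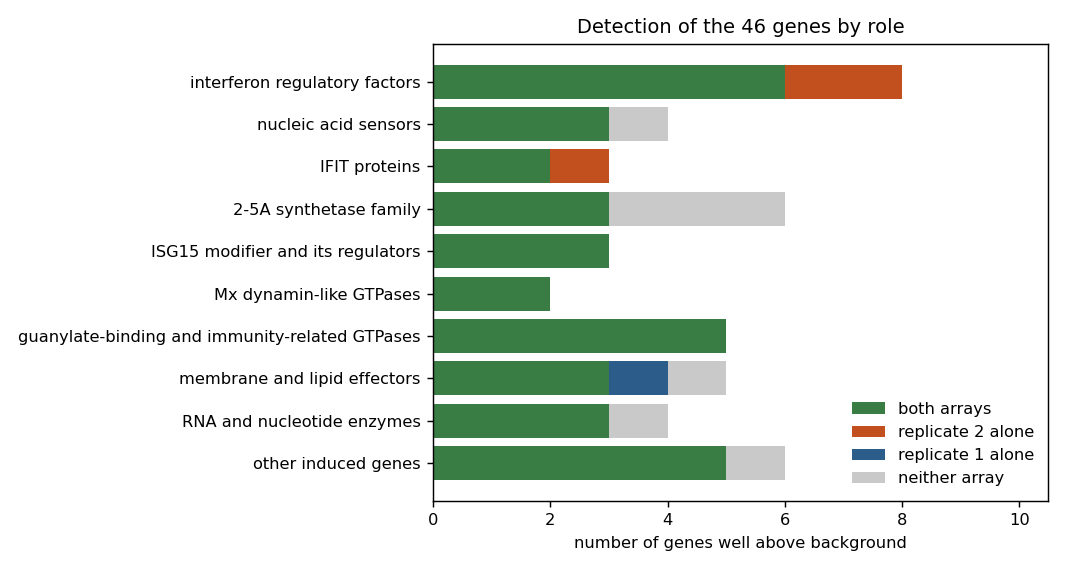
Number of the 46 genes in each role (horizontal axis, count) that were well above background on both arrays, on replicate 2 alone, on replicate 1 alone or on neither. All 5 guanylate-binding and immunity-related GTPases were detected on both arrays, against 3 of 6 members of the 2-5A synthetase family.

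The difference between the arrays was taken for each detected gene from its brightest detected probe. A probe's brightness also depends on its sequence, so levels are compared for the same probe across arrays and not between genes. Among the IRFs, Irf3 and Irf1 had signals far above background. Irf3, the constitutive factor that sensors activate by phosphorylation, gave 13339 intensity units on replicate 2 and 15509 on replicate 1. Its mean log2 value was 5.53 ± 0.070 (SD, n = 2). Irf1, an activator that interferon gamma induces, gave 8765 units on replicate 2 and 8426 on replicate 1 (4.79 ± 0.12, SD, n = 2). Irf9, the DNA-binding partner of STAT proteins, gave 853 units on replicate 2 and 1206 on replicate 1, a log2 difference of -0.38. Irf8, a factor of myeloid and B-lineage cells, gave 1559 units on replicate 2 and 1103 on replicate 1, a difference of 0.62. Irf2, a repressor that competes with Irf1, gave 224 units on replicate 2 and 248 on replicate 1. Irf4, which activated lymphocytes raise, gave 261 units on replicate 2 and 273 on replicate 1, a difference of 0.054. Units are not scaled, so a gene with slightly fewer units on replicate 2 can have a difference above 0. For Irf1, Irf2, Irf3 and Irf4 the arrays thus lay within 0.18 of each other on the log2 scale, while Irf8 and Irf9 moved apart in opposite directions.

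The remaining IRFs, Irf7 and Irf5, gave little signal. Irf7, the master regulator of the interferon alpha genes, gave 32.9 units on replicate 2 and 24.1 on replicate 1. Irf5, which acts downstream of Toll-like receptors, gave 47.0 units on replicate 2 and 23.5 on replicate 1. Both were above background on replicate 2 alone. Irf1 was measured by a pair of probes for different transcripts, and they did not behave alike. The probe for NM_008390 is the one described above. The probe for NM_001159393 gave 92.6 units on replicate 2, where it was detected, and 29.8 on replicate 1, where it was not. Their positions are chr11:53590746-53590805 and chr11:53591817-53591876 on build mm9, both on the plus strand.

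Of the nucleic acid sensors, 3 of 4 were detected. Zbp1, a sensor of Z-form nucleic acid, gave 3866 units on replicate 2 and 3282 on replicate 1. Its second probe moved by nearly the same amount, 0.38 against 0.35 for the brighter probe. Ddx58 (RIG-I), which binds viral RNA ends, gave 499 units on replicate 2 and 613 on replicate 1. Its second probe, with 6.97 units on replicate 2 and 6.24 on replicate 1, was not above background on either array. Dhx58 (LGP2), a regulatory relative of Ddx58, gave 119 units on replicate 2 and 136 on replicate 1. Ifih1 (MDA5), the sensor of long double-stranded RNA, was not above background with either of its probes. The detected sensors therefore held 1 gene higher on replicate 2 and 2 slightly higher on replicate 1.

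The IFIT proteins bind foreign RNA ends and block translation. Ifit1 gave 355 units on replicate 2 and 326 on replicate 1, and Ifit2 gave 292 units on replicate 2 and 284 on replicate 1. Ifit3 gave 42.3 units on replicate 2 and 23.6 on replicate 1 and was above background on replicate 2 alone. The probes of the 3 genes lie on chromosome 19 between positions 34650244 and 34723855 of mm9.

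The 2-5A synthetases make the second messenger that activates RNase L. Oas1b, a mouse gene known for resistance to flaviviruses, gave 12913 units on replicate 2 and 16727 on replicate 1 with its brightest probe. Its dimmest probe gave only 137 units on replicate 2 and 212 on replicate 1. All 3 of its probes were higher on replicate 1, by 0.26, 0.35 and 0.52 on the log2 scale. The brighter pair shares a run of 42 bases, printed here in capitals because the pair reads nearly the same stretch yet gave unequal signals.
Oas1b probe at chr5:121274109-121274168 (mm9, plus strand): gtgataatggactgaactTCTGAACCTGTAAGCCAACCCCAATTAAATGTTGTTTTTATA
Oas1b probe at chr5:121274126-121274185 (mm9, plus strand): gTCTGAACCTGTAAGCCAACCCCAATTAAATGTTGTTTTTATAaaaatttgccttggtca

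The second of these gave 1804 units on replicate 2 and 2493 on replicate 1. Oas1a, a synthetase encoded close by on chromosome 5, gave 97.6 units on replicate 2 and 121 on replicate 1. Oas2 and Oas3, which lie in the same cluster, were not detected. Oasl1, a synthetase-like protein known in mice to restrain Irf7 translation, gave 274 units on replicate 2 and 153 on replicate 1, a difference of 0.96. Oasl2, its neighbour on chromosome 5, was not above background on either array. Family members that share a stretch of chromosome 5 thus differed in whether they were detected at all.

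Isg15, a ubiquitin-like protein attached to other proteins after interferon, gave 30477 units on replicate 2 and 24993 on replicate 1. Its second probe gave 1161 units on replicate 2 and 916 on replicate 1, and the differences were 0.40 and 0.46. The brighter Isg15 probe shares 35 bases with a probe named Gm9706, which had a difference of 0.36, so the signal of this pair cannot be assigned to 1 transcript with certainty. Usp18, the protease that removes Isg15 and also restrains the Ifnar2 receptor chain, gave 853 units on replicate 2 and 1092 on replicate 1. Trim25, a ubiquitin ligase that acts on RIG-I, gave 16840 units on replicate 2 and 20968 on replicate 1. The modifier and its 2 regulators therefore moved in opposite directions, by less than 1.5-fold each.

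The Mx proteins are dynamin-like GTPases that trap viral components. Mx1 gave 37.4 units on replicate 2 and 35.6 on replicate 1, close to the detection limit. Mx2 gave 130 units on replicate 2 and 88.0 on replicate 1, a difference of 0.69. Both genes lie on chromosome 16.

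The guanylate-binding proteins and the immunity-related GTPases attack the vacuoles of intracellular parasites and bacteria and are strongly induced by interferon gamma. Gbp2 gave 1475 units on replicate 2 and 1108 on replicate 1. Gbp3 gave 1849 units on replicate 2 and 1579 on replicate 1, and Gbp4 gave 1784 on replicate 2 and 1462 on replicate 1. These guanylate-binding proteins were all higher on replicate 2. Igtp gave 3755 units on replicate 2 and 2950 on replicate 1. Irgm1, a regulator of the other immunity-related GTPases, gave 1526 units on replicate 2 and 1338 on replicate 1. Its second probe, with 412 units on replicate 2 and 301 on replicate 1, moved the same way.

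Among the membrane and lipid effectors, Bst2 (tetherin), which holds budding virus at the cell surface, gave 6479 units on replicate 2 and 6307 on replicate 1. Rsad2 (viperin), which makes a chain-terminating nucleotide, gave 300 units on replicate 2 and 243 on replicate 1. Ifitm3, which blocks viral entry at the endosome, gave 346 units on replicate 2 and 149 on replicate 1. Of the 35 detected genes Ifitm3 had the largest difference, 1.34 on the log2 scale, and its probe is shown for that reason.
Ifitm3 probe at chr7:148195591-148195650 (mm9, minus strand): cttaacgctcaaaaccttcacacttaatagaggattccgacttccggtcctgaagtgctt

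Ifitm2, also on chromosome 7, was not above background. Ifitm1 was read by a pair of probes that share 54 bases, given in capitals, although the files place one on chromosome 8 and the other on chromosome 7.
Ifitm1 probe at chr8:13896764-13896823 (mm9, plus strand): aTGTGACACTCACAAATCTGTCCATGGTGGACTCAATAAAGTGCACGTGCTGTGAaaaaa
Ifitm1 probe at chr7:148155659-148155718 (mm9, plus strand): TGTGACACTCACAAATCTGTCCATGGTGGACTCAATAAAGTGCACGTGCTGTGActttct

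The first of the pair gave 10.4 units on replicate 2 and 31.9 on replicate 1, where it was just above background. The second gave 16.5 units on replicate 2 and 9.80 on replicate 1 and was not above background on either array. Neither probe therefore gives a difference between the arrays.

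Of the RNA and nucleotide enzymes, Adar, which edits adenosine in double-stranded RNA, gave 1080 units on replicate 2 and 1408 on replicate 1. Its second probe showed a difference of only -0.0081, against -0.26 for the brighter probe. Eif2ak2 (PKR), which stops translation on double-stranded RNA, gave 473 units on replicate 2 and 436 on replicate 1. Isg20, an exonuclease, gave 2805 units on replicate 2 and 2800 on replicate 1. Samhd1, which degrades nucleotides needed for reverse transcription, was not above background with any of its 3 probes.

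Of the other induced genes, Ifi35 gave 1609 units on replicate 2 and 1564 on replicate 1. Ifi27l2a gave 812 units on replicate 2 and 843 on replicate 1, a scaled log2 difference of 0.064. Parp14, a mono-ADP-ribosyltransferase, gave 797 units on replicate 2 and 679 on replicate 1. Rtp4, known in receptor transport, gave 118 units on replicate 2 and 55.5 on replicate 1. It thus had the next largest difference after Ifitm3, 1.20 on the log2 scale. Xaf1, an inhibitor of the apoptosis inhibitor XIAP, gave 119 units on replicate 2 and 217 on replicate 1, a difference of -0.75. Its second probe was lower on replicate 2 too, by 0.17 on the log2 scale. Ifi44 was not detected.

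**Figure D2:**
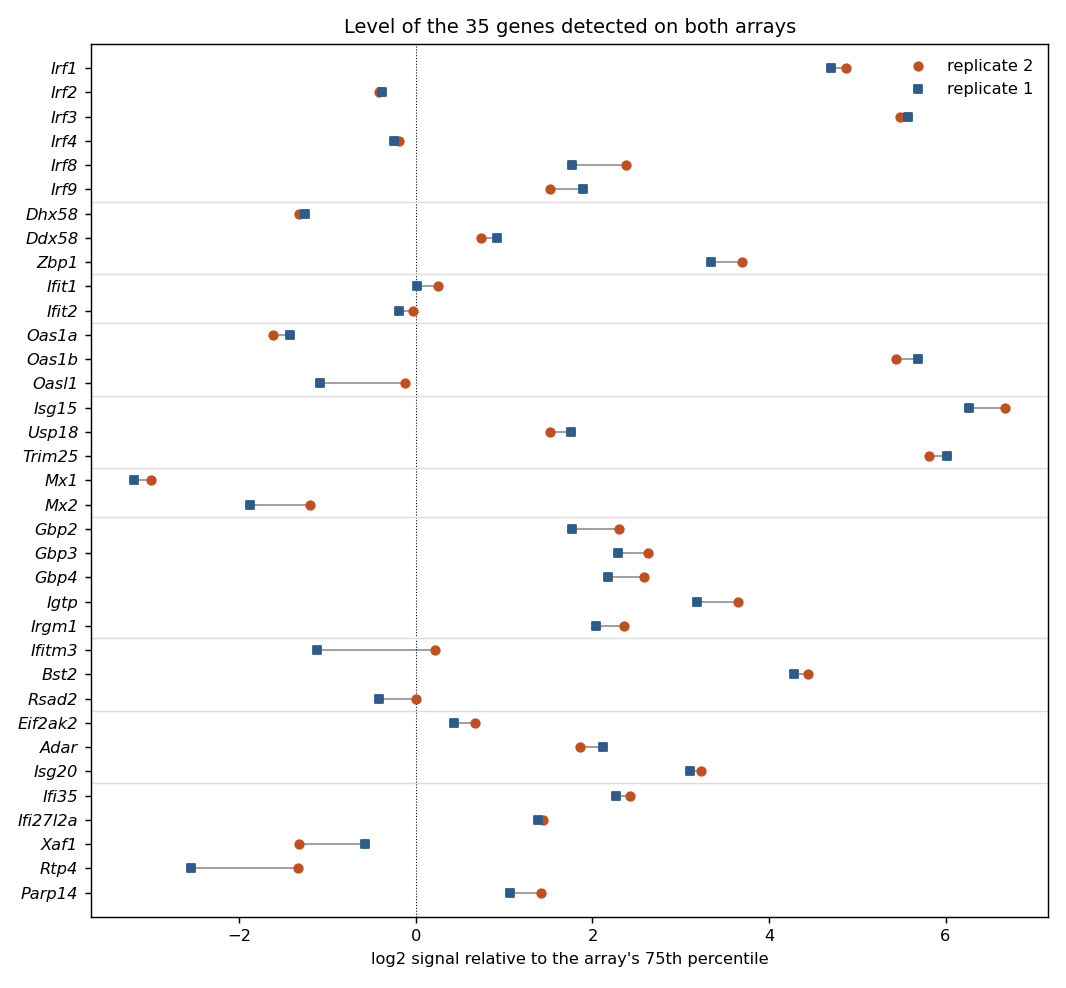
Log2 signal of the 35 detected genes relative to the array's 75th percentile (horizontal axis), on replicate 2 (orange circles) and replicate 1 (blue squares), grouped by role. Each row is 1 probe and is to be read along the row, as probes differ in brightness, and the points of Ifitm3 and Rtp4 lie farthest apart.

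Each list of the wider pathway was counted by the same rule. Of 10 interferon genes on the array, 2 were detected. Ifng, the gene of interferon gamma, gave 212 units on replicate 2 and 77.1 on replicate 1, a log2 difference of 1.58. Il28b, an interferon lambda gene, gave 63.0 units on replicate 2 and 50.9 on replicate 1. Ifnk was above background on replicate 1 alone. Ifnb1, Ifna1 and Ifna2 were not above background on either array, nor were the other 4 names of the list. The 2 interferon genes detected were thus both higher on replicate 2, as were 46.9% of all detected genes. Il28b was detected with 1 of its 2 probes, and its signal on replicate 2 lay below the highest negative control spot there (101 units).

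Of the receptor chains, 5 of 6 were detected. Ifnar1 gave 607 units on replicate 2 and 775 on replicate 1. Ifnar2 gave 1899 units on replicate 2 and 1948 on replicate 1, a scaled log2 difference of 0.082. Ifngr1 gave 10791 units on replicate 2 and 10834 on replicate 1, a scaled log2 difference of 0.11. Ifngr2 gave 1121 units on replicate 2 and 1119 on replicate 1. Both chains of the type I receptor and both chains of the interferon gamma receptor were therefore detected, whereas Il28ra, the specific chain of the lambda receptor, was not. None of the detected chains was over 1.5-fold apart.

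Of the kinases and STATs, 6 of 7 were detected and 5 of these 6 were higher on replicate 1, beside 8530 of all 16060 detected genes. Jak1 had a log2 difference of -0.22 and Jak2 of -0.25, whereas Tyk2 had 0.32. Stat2, chosen here after its values were seen because it binds IRF9, had a difference of -0.37. Stat4 was not detected. Stat2 and Irf9, at -0.38, were thus both lower on replicate 2.

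Of the genes that link sensors to IRFs, 10 of 11 were detected, among them Mavs, Tmem173 (STING), Tbk1 and Ikbke. Their differences were -0.27, 0.068, 0.036 and 0.50 in that order. Tlr3 was not detected. All 9 inhibitors of interferon signalling on the array were detected, and 6 of them were higher on replicate 1, beside 8530 of all 16060 detected genes. Scaled by the median, which moved the all-gene median to -0.25, all 9 were higher on replicate 1. Socs1 had a difference of -0.35, Socs3 of -0.49, Ptpn2 of -0.070 and Ptpn6 of 0.086.

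Of 30 further interferon-induced genes, 25 were detected on both arrays. Parp9 and Dtx3l, partner proteins in DNA repair, had differences of 0.088 and 0.17. Sp100 and Pml, components of nuclear bodies, had -0.13 and -0.072. Cmpk2 was above background on replicate 2 alone, and Parp12, Trim30a, Trim34a and Tgtp1 were not on either array. In this wider list 13 of the 25 detected genes lay above the median of all genes, with a median difference of -0.014. Of the 29 detected induced members of the set, 21 lay above the median of all genes. A scaling shifts every gene by the same amount, so neither count can change with it. The difference between the lists was not tested.

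Across all 16060 detected gene names the median difference was -0.019, and the 5th to 95th percentile ran from -0.48 to 0.51. The 35 detected genes of the set had a median difference of 0.18. It was 0.011 for the 6 IRFs and 0.24 for the 29 induced genes. A difference above the all-gene median was found for 24 of the 35, which are 3 of the 6 IRFs and 21 of the 29 induced genes. Over all detected genes, 46.9% had a difference above 0. When arrays were scaled by the median of all probes, the median over all genes moved to -0.25 and that of the set to -0.053. The median of the set less that of all genes was 0.19 under either scaling, because a scaling shifts every gene by the same amount. The sign of a small difference therefore depends on the scaling. With that scaling 16 of the 35 lay above 0, against 24 with the 75th percentile. Differences above 0.2 were found for 16 of the 35, beside 20.8% of all detected genes, and differences below -0.2 for 5, beside 22.6%. There is no second condition and no test, and a list's median is given beside that of all genes as a description.

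A difference beyond 1.5-fold was found for 6 of the 35 genes, beside 6.36% of all detected genes. Ifitm3, Rtp4, Oasl1, Mx2 and Irf8 were higher on replicate 2, a direction that 3.54% of all detected genes took. Xaf1 was higher on replicate 1, as were 2.81% of all detected genes. Scaled by the median, Irf8 (0.39) and Mx2 (0.46) were no longer beyond 1.5-fold and Irf9 (-0.61) was. With normexp background correction Mx2 (0.41) and Xaf1 (-0.50) were not beyond 1.5-fold, and Rtp4 had 0.68. Beyond 2-fold there were Ifitm3 and Rtp4, beside 0.965% of all detected genes. With normexp neither was (Ifitm3 0.97), and scaled by the median Rtp4 (0.98) was not. Ranked by difference among 16060 genes, Ifitm3 was number 38 from the top, Rtp4 number 61 and Oasl1 number 112.

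Dim genes differed more between the arrays. All detected genes were split by mean signal into a dim, a middle and a bright class of equal size. In the dim class 12.1% of the genes were beyond 1.5-fold, in the middle class 5.03% and in the bright class 1.91%. Of the 6 genes of the set beyond 1.5-fold, 5 lay in the dim class, which held 13 members, and Irf8 lay in the middle class with 14 members. None of the 8 members in the bright class was beyond 1.5-fold. The part of low signal in these differences was not tested. The median difference of the members was 0.19, 0.20 and 0.17 in the dim, middle and bright class, beside 0.038, -0.037 and -0.033 for all genes there.

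**Figure D3:**
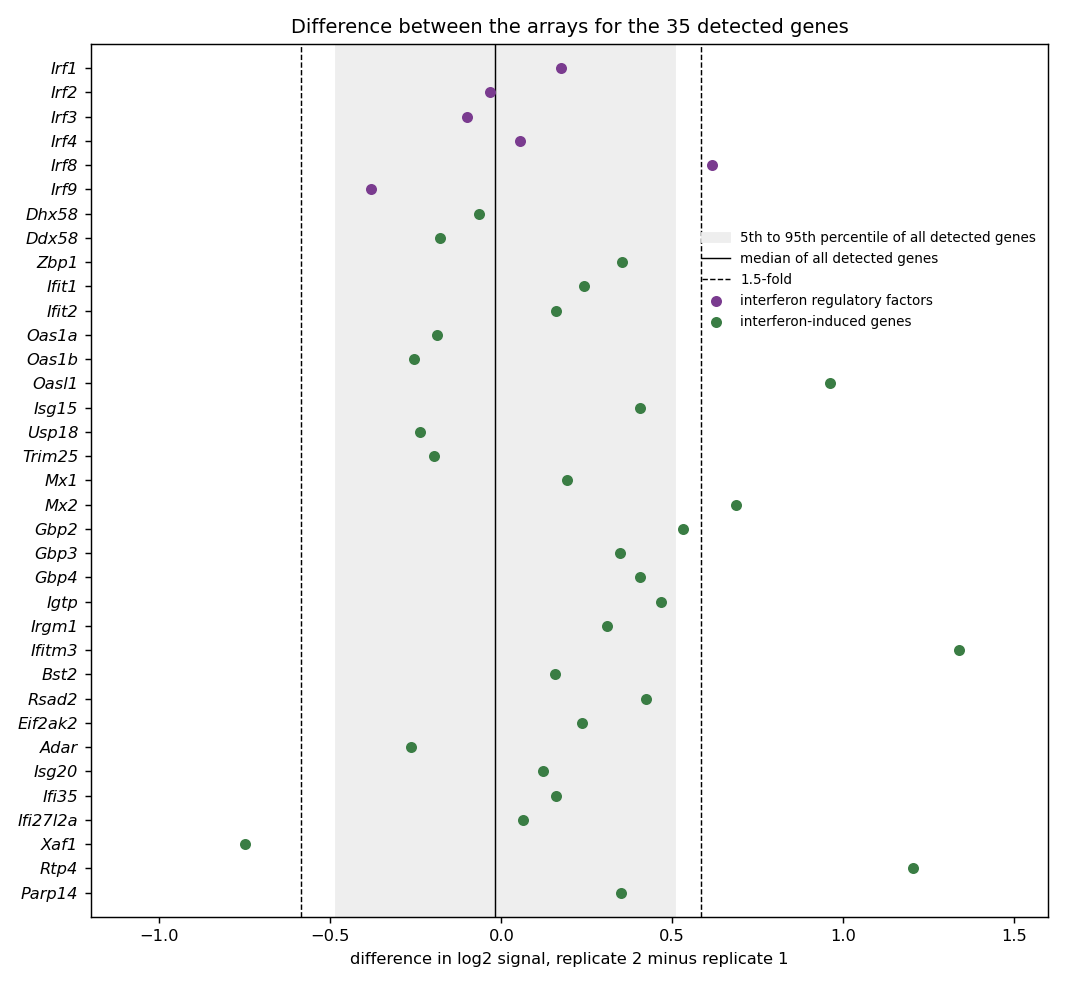
Difference in log2 signal, replicate 2 minus replicate 1 (horizontal axis), for the 35 detected genes, with IRFs in purple and induced genes in green. The grey band is the 5th to 95th percentile of all detected genes, the solid line their median of -0.019 and the dashed lines 1.5-fold; 5 genes lie beyond the right dashed line and Xaf1 beyond the left one.

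A pair of the genes was printed on 10 spots per array, which gives a measure of the spot-to-spot error within an array. Ifitm3 spots ran from 291 to 448 units with a median of 333 on replicate 2 (n = 10). On replicate 1 they ran from 136 to 184 with a median of 147 (n = 9, 1 spot left out). The spots of the arrays did not overlap, and the difference of 1.34 had a standard error of 0.080 from the spots. Igtp spots ran from 3413 to 4039 units on replicate 2 and from 2704 to 3128 on replicate 1 (n = 10 each). The difference of 0.47 had a standard error of 0.030 from the spots, again without overlap. Spots on an array share 1 RNA sample, so these errors leave out the spread between cultures or labelling reactions. Among 207 detected probes printed on 10 spots, Ifitm3 had the highest difference and Igtp was number 15. Of those probes, 4.83% were beyond 1.5-fold. Their median SD over spots was 0.065 on replicate 2 and 0.060 on replicate 1. Over all detected genes the median absolute difference between the arrays was 0.17. How many of the 207 probes also had spots without overlap was not counted, so lack of overlap does not set Ifitm3 and Igtp apart.

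**Figure D4:**
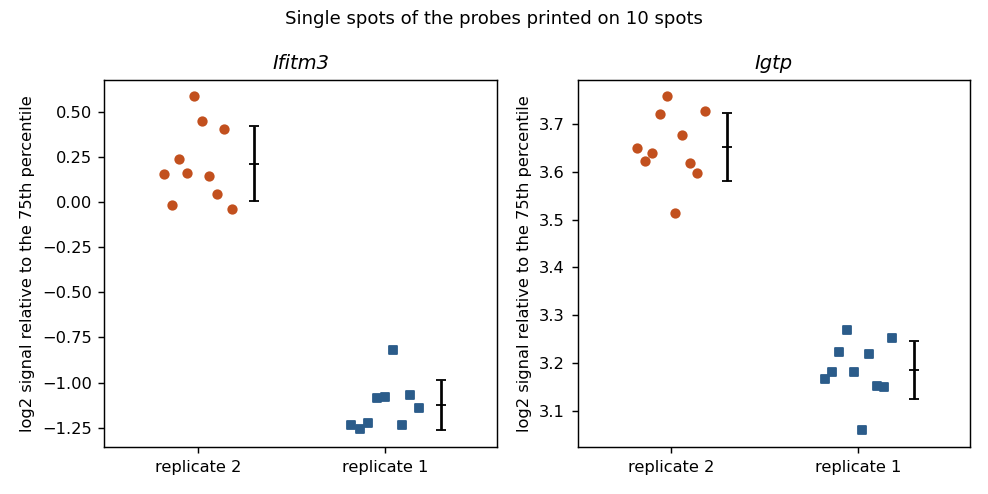
Log2 signal relative to the array's 75th percentile (vertical axis) of each spot of the Ifitm3 and the Igtp probe on replicate 2 (orange circles) and replicate 1 (blue squares), with the mean and SD over spots as bars. For both genes every spot on replicate 2 lies above every spot on replicate 1, and how many other probes do so was not counted.

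The 5 guanylate-binding and immunity-related GTPases moved together. Their differences were 0.53 for Gbp2, 0.47 for Igtp, 0.41 for Gbp4, 0.35 for Gbp3 and 0.31 for Irgm1, with a median of 0.41. All 5 exceeded 0.2, beside 20.8% of all detected genes, and none reached 1.5-fold. Over all detected genes, 46.9% had a difference above 0. All 5 were higher on replicate 2 under all 8 alternatives of scaling, background correction and probe choice. They also lay above the all-gene median under each alternative, though a change of scaling alone cannot alter that. The smallest of their differences was 0.080 for Irgm1 when scaled by the median. The pathway lists hold 8 further GTPases of these families, a grouping made after their values were seen. Of these, 7 were detected and all 7 were higher on replicate 2, from 0.16 for Iigp1 to 0.81 for Gbp7, although 2 turned to the other side when scaled by the median. All 7 lay above the all-gene median, which a change of scaling cannot alter. They are part of the wider list of 25 detected induced genes, of which 13 lay above that median and 12 below. All 7 are thus among those 13, and the rest of the wider list lay mostly below the median. The guanylate-binding genes are close relatives. The probes of the 5 GTPases of the set share no run of 20 or more bases with a probe of another gene, and uptake of related transcripts was not tested otherwise. By contrast Ifi203 (-0.92), Ifi204 (-1.04) and Nlrc5 (-0.76), also induced by interferon and picked after their values were seen, were over 1.5-fold higher on replicate 1. Interferon-induced genes thus lay beyond 1.5-fold on both sides.

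**Figure D5:**
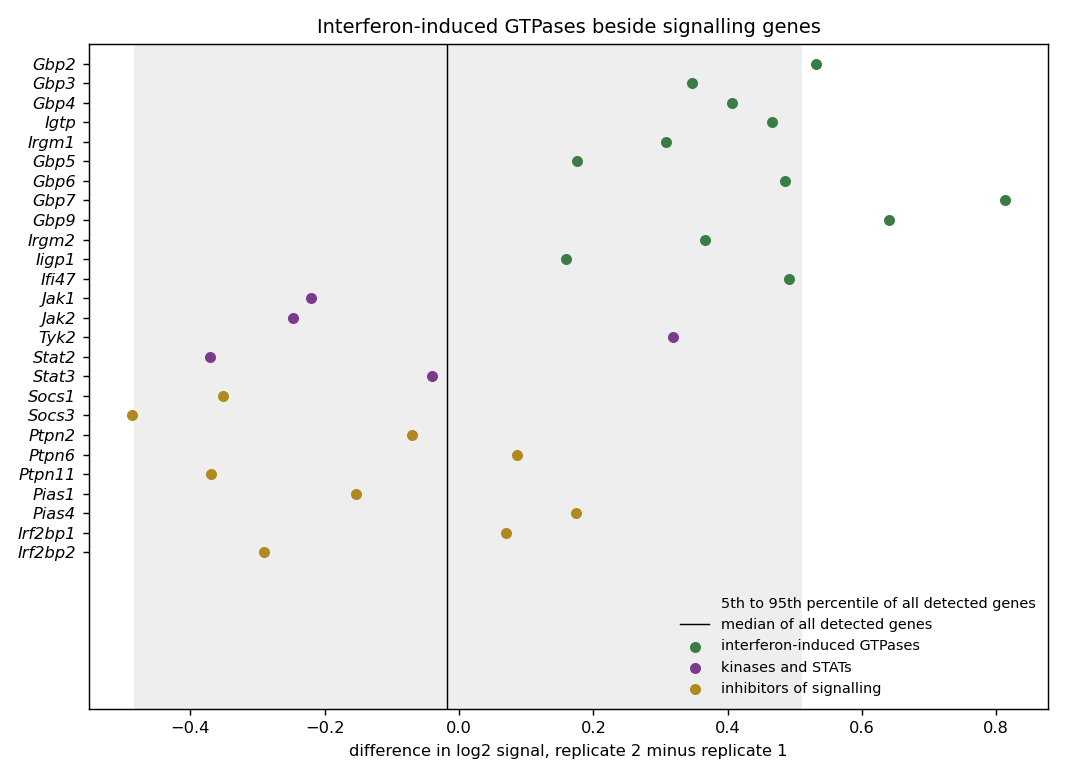
Difference in log2 signal, replicate 2 minus replicate 1 (horizontal axis), for 12 detected interferon-induced GTPases, 5 kinases and STATs and 9 inhibitors of signalling. All 12 GTPases lie to the right of the all-gene median of -0.019, against 1 of the 5 kinases and STATs drawn.

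Markers of other cell types were set beside these differences. The 4 detected of 8 myeloid markers were all higher on replicate 2, from 0.19 to 0.89, beside 46.9% of all detected genes. Of these 4 markers, 1 turned to the other side when scaled by the median. Cd14, with 47.0 units on replicate 2, lay below the highest negative control spot there (101 units). Csf1r stood at 133 units on replicate 2 and 77.6 on replicate 1. Itgam gave 6868 units on replicate 2 and 6292 on replicate 1 with a probe that carries a repeat run shared by many probes, whereas its other detected probe gave 68.9 units on replicate 2 and 42.9 on replicate 1. Emr1 and Mpo were each above background on a single array, and the macrophage markers Lyz2 and Fcgr1 were on neither. Of the plasmacytoid markers, Spib gave 210 units on replicate 2 and 64.6 on replicate 1, while Ly6d had a difference of -0.74. The detected plasmacytoid markers had a median difference of -0.053. Cd79a was the single B-cell marker detected on both arrays, with a difference of -0.15. Cd79b gave 67.4 units on replicate 2, where it was above background, and 15.7 on replicate 1, where it was not. Summed over the brightest probe of each marker, the signals were 7285 units on replicate 2 and 6602 on replicate 1 for the myeloid list, and 155 on replicate 2 and 118 on replicate 1 for the B-cell list. The myeloid sum is mostly the repeat-carrying Itgam probe, and with the other detected Itgam probe in its place, a choice made after seeing the data, it was 485 units on replicate 2 and 353 on replicate 1. For the plasmacytoid list they were 56782 units on replicate 2 and 86161 on replicate 1. The part of other cells in the differences of Ifitm3, Irf8 and the GTPases was not tested.

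Promoter windows of RefSeq on build GRCm38.p6, each running from 250 bases before to 50 bases after an annotated start, were found for 35 of the 46 genes. They were searched on both strands for the ISRE core, spelled as GAAA, any 2 bases and GAAA again, and for the GAS core, spelled TTCNNNGAA. The ISRE core was in a window of 17 of the 35 genes (48.6%), beside 3.99% of 27025 genes with a window. It was present for 16 of 27 induced genes and for 1 of 8 IRFs, which is Irf2. The GAS core was in a window of 13 of the 35 genes (37.1%), beside 9.55% of all genes. The motifs overlapped in 2 of the windows. A match is a run of letters and not a binding site. The genes were chosen as interferon-induced, so the ISRE share is background to the set and not an independent result.

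All 4 GTPases with a window held the ISRE core, and the windows of Gbp2, Igtp and Irgm1 are shown because these genes moved together. Isg15 is shown for its 3 overlapping ISRE cores, Ifitm3 for its large difference and Irf8 because it held GAS cores without an ISRE core. Capitals mark the matches, and overlapping matches run into each other.
Gbp2 window at chr3:142620413-142620712 (GRCm38.p6, plus strand): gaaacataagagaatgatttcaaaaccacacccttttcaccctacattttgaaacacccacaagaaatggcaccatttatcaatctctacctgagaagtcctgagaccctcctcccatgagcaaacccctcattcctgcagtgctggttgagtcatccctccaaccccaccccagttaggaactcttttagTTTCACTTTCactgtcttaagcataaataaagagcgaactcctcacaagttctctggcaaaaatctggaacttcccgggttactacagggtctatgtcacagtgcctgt
Igtp window at chr11:58199306-58199605 (GRCm38.p6, plus strand): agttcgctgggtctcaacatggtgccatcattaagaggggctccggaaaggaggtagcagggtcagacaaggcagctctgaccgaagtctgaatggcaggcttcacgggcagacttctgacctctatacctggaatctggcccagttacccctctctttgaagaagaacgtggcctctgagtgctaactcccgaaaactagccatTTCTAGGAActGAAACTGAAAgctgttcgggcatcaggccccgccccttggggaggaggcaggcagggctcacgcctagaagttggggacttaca
Irgm1 window at chr11:48871371-48871670 (GRCm38.p6, minus strand): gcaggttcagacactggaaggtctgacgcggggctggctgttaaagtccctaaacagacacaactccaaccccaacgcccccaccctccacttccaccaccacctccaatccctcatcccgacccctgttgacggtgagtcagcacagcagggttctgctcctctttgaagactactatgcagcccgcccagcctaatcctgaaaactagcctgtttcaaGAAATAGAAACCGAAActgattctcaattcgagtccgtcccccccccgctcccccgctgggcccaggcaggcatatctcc
Isg15 window at chr4:156200769-156201068 (GRCm38.p6, minus strand): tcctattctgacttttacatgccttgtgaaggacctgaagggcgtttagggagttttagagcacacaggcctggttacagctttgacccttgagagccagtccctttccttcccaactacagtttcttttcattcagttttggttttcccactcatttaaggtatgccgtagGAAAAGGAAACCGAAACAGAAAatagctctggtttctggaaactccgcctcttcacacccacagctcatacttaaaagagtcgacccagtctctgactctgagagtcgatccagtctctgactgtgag
Ifitm3 window at chr7:141010695-141010994 (GRCm38.p6, minus strand): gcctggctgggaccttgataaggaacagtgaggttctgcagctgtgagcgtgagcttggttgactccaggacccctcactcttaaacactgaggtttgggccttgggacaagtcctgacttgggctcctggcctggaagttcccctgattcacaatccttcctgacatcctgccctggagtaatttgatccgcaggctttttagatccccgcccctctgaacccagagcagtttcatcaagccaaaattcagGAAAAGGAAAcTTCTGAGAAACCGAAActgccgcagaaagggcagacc
Irf8 window at chr8:120736108-120736407 (GRCm38.p6, plus strand): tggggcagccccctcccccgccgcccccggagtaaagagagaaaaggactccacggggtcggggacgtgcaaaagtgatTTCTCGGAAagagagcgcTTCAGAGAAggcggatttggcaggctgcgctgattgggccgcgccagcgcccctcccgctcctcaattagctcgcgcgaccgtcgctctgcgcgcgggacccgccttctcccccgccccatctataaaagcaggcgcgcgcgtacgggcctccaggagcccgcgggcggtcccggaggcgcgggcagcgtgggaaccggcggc

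The ISRE core of Gbp2 starts 59 bases before the annotated start, that of Igtp 34 bases before it and those of Irgm1 30 and 24 bases before it. The 3 cores of Isg15 start 78, 72 and 66 bases before the start. In Ifitm3 the cores lie after the start, so the window places them in the transcribed part of this annotation. The GAS cores of Irf8 start 171 and 153 bases before the start, and a second Irf8 window held neither motif. Among the detected genes with a window, the 13 with an ISRE core had a median difference of 0.31 and the 12 without had 0.087, with ranges that overlap. The 13 include the GTPases Gbp2, Gbp3, Igtp and Irgm1, and the 12 include Irf1, Irf3, Irf4, Irf8 and Irf9. This split therefore overlaps with the groups compared above, and a link between the core and the difference was not tested. Detected genes with and without a GAS core had medians of 0.16 and 0.24. The ISRE core was present both in detected genes (13 of 25) and in genes not detected on both arrays (4 of 10).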

How the data were processed

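Total RNA of 2 untreated P5424 samples was labelled with Cy3 and hybridised to 1 array each. Per the file headers, the intensity values were made with Agilent Feature Extraction 10.5.1.1, which the submitters' processing notes name too, and probe positions are on build mm9. The authors also deposited a table of log2 values of the same arrays, whose scale and centring are not given in the sources used here. It served as an alternative. Spots that the software flagged as uneven or outlying were dropped, 186 on replicate 2 and 182 on replicate 1. Processed signals were put on the log2 scale, averaged per probe, and set relative to the 75th percentile over each array's non-control probes. A probe was detected when at least 50% of its spots were well above background on both arrays. A gene took the value of its brightest detected probe, and 44 of the 62 probes of the set were detected. Of those 62 probes, 54 had an accession that RefSeq ties to the same symbol and 8 were not matched. Exon and UTR annotation of the probes was not analysed here. With 1 group there was no test, and the precision is limited by the number of arrays. Alternatives covered the scaling, normexp with an offset of 50 (limma 3.58.1, R 4.3.3), the choice of probe, the filter on dim genes and the detection rule. The other steps used Python 3.11.15, numpy 2.4.6, pandas 2.3.3 and matplotlib 3.10.9, and the calculation was tested on simulated data. Every member is named. A few genes of the pathway and marker lists are kept in the counts but not reported here. Pathway lists are represented by their first 4 detected genes, their first 3 undetected ones and all genes of a class with 5 or fewer. The members and lists were chosen with earlier results of these data known.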

Additional observations from a re-analysis of the deposited data

How the results depend on the processing

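The number of detected genes of the set was 35 and ran from 32, when every probe had to be detected, to 44, when a positive and significant signal was enough, beside 46.1%, 37.8% and 66.1% of all gene names under the same 3 rules. On a single array it was 38 on replicate 2 and 36 on replicate 1, with 8 and 6 IRFs and with 30 induced genes on each. Of 278 values of single genes under the alternatives, 234 moved by less than the typical spread between the arrays and 44 moved by more. Scaling by the median shifts all 35 detected genes by the same amount, and each of these shifts counts among the 44. The other scalings shift all genes by less than that spread, and the filter on dim genes leaves values unchanged. The counts therefore do not measure how stable single genes are. None of the genes beyond 1.5-fold changed sign. Scaling by the median of all probes gave median differences of -0.053 for the set, -0.22 for the IRFs and 0.0088 for the induced genes, beside -0.25 for all genes. Without scaling the all-gene median was -0.14. The number of genes of the set beyond 1.5-fold was 4 to 6 under the alternatives of scaling, background correction, probe choice and filter, and 2 at 2-fold. The direction of these calls was 5 higher on replicate 2 and 1 on replicate 1, against 3 and 2 when scaled by the median, 3 and 1 without scaling, 4 and 0 with normexp and 5 and 0 with the mean over probes. Over all genes, 1021 were beyond 1.5-fold, against 1732 when scaled by the median and 438 with normexp, and the cause was not tested. Signal over background limits Mx1 and Oas1a, whose replicate 2 signals lay under the brightest negative control spot there. No paired analysis was possible because the samples form 1 group.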

Other observations

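The dimmer Trim25 probe is shown because most of it is a repeat that probes of other genes share. Capitals mark the longest shared run, of 33 bases.
Trim25 probe at chr11:88874956-88881181 (mm9, plus strand, spanning more than its own length): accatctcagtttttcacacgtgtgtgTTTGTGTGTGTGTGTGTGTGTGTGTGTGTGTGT

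It gave 6994 units on replicate 2 and 9132 on replicate 1, a log2 difference of -0.27. Runs of at least 20 bases were shared with 76 probes of other gene names, all detected. Of these, 52 carry the run in the same direction, and all 52 were higher on replicate 1, with a median difference of -0.41 and a range of -0.87 to -0.19. The other 24 carry its reverse complement, and all 24 were higher on replicate 2, with a median of 0.29 and a range of 0.015 to 0.64. Of all 16060 detected genes, 8530 were higher on replicate 1 and 7530 on replicate 2. Scaling by the median lowers every difference alike, with the all-gene median going from -0.019 to -0.25. The smallest differences of the 24 would then fall below 0. One of these 24 is the brightest probe of the myeloid marker Itgam, with a difference of 0.24. These probes share sequence and are not independent of each other. The pattern was noticed in these data and its cause was not tested. The brighter Trim25 probe, which the Trim25 value above rests on, shares no such run, and its difference was -0.20.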
